A study of Homo sapiens with 6 samples.

Results

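Of the genes in the deposited table, 5 are metalloproteinases chosen by symbol for this description: MMP1, MMP10, MMP11, ADAM19 and ADAMTS1, out of 753 rows. Levels were measured by poly(A) RNA sequencing in AsPC-1, an established human pancreatic cancer cell line, and the study concerned TMPRSS4, a membrane-bound serine protease. Per the labels, 3 libraries came from cells given a lentivirus that delivers an shRNA targeting TMPRSS4 (shTMPRSS4) and 3 from cells given a control lentivirus (control); neither the hairpin sequence nor the time after infection is given, and the labels do not say whether the replicates were separate cultures. TMPRSS4 itself was not analysed here, so the knockdown rests on the labels.

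Metalloproteinases cut proteins with the help of a zinc ion. Matrix metalloproteinases (MMPs) are mostly secreted as inactive zymogens, need proteolytic activation and are held in check by tissue inhibitors (TIMPs), and together they can degrade most components of the extracellular matrix. ADAM proteases sit in the cell membrane and release the outer parts of other membrane proteins, while ADAMTS proteases are secreted relatives that bind matrix and cut proteoglycans or collagen precursors. In pancreatic tumours these enzymes are made by the cancer cells and by the surrounding stroma.

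The 2 most abundant of the 5 transcripts in control cells, ADAM19 and MMP1, fell in shTMPRSS4 cells, while MMP10 and MMP11 rose on the scale of recovered depth. ADAM19 was 3.52-fold and MMP1 2.77-fold lower. MMP10 was 2.16-fold and MMP11 2.70-fold higher, although both rises depended on how the libraries were scaled. ADAMTS1 had reads in shTMPRSS4 libraries and none in control libraries.

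The authors' deposited table held rows that had all been selected for a difference, with an FDR of at most 0.0490 and a log2 fold change no closer to 0 than 1 in either direction, so being called is not a property of these 5 genes. On the whole table, 699 of 705 tested rows (99.1%) passed the quasi-likelihood test of edgeR, with a threshold of 0.05 on the Benjamini-Hochberg adjusted p. Of all tested rows 73.3% passed as higher and 25.8% as lower, with a median log2 fold change of 1.26. Among the 5 metalloproteinases, 2 passed as higher, 2 as lower, and ADAMTS1 had too few counts to be tested. The FPKM values (a level corrected for gene length and sequencing depth) of the groups did not overlap for any of the 5, against 97.7% of the 753 rows. Neither share sets these genes apart from the table, and what follows describes their levels and their differences from each other.

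The depth recovered for the libraries was 46800000 to 53300000 reads in shTMPRSS4 and 30200000 to 57200000 reads in control, and the rows analysed held 1.23% to 1.40% of it. Control replicate 3, the shallowest, is the only library whose description carries the code L3, where the other 5 carry L4. With 3 against 3 libraries an exact permutation test of a single value cannot go below p = 0.1, so the p-values given are those of the fit across all rows. They measure the spread between these libraries, which may be technical. In bulk RNA, fewer cells that make a transcript and less of it per cell cannot be told apart.

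ADAM19 (ENSG00000135074; GENCODE release 29 on GRCh38, chromosome 5, 157395534 to 157575775, minus strand) encodes a membrane-anchored protease that can release neuregulins, ligands of ERBB receptors. Its level was 5.02, 4.92 and 5.12 FPKM in shTMPRSS4 replicates 1, 2 and 3, against 17.67, 17.12 and 18.31 FPKM in control replicates 1, 2 and 3. The libraries within each group were close together and the groups lay far apart. Its log2 fold change was -1.82 ± 0.03 (SE; edgeR adjusted p = 1.62e-09). ADAM19 had 929 to 1039 counts in each shTMPRSS4 library and 2147 to 3922 in each control library. The coefficient of variation between libraries was 1.96% in shTMPRSS4 and 3.38% in control, where counting error alone gives 3.20% and 1.94%. In the authors' deposited table it stood at rank 10 of 753 by FDR.

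MMP1 (ENSG00000196611; chromosome 11, 102789920 to 102798160, minus strand) encodes interstitial collagenase, which cuts fibrillar collagens. Its level was 1.02, 0.90 and 1.19 FPKM in shTMPRSS4 replicates 1, 2 and 3, against 3.19, 2.84 and 2.67 FPKM in control replicates 1, 2 and 3. Every shTMPRSS4 library was below every control library. The log2 fold change was -1.47 ± 0.14 (edgeR adjusted p = 2.02e-05). These levels rest on 89 to 110 counts per shTMPRSS4 library and 159 to 360 per control library. The spread between libraries was somewhat above counting error, with a coefficient of variation of 14.5% against 9.90% in shTMPRSS4 and 9.21% against 6.72% in control.

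MMP10 (ENSG00000166670; chromosome 11, 102770503 to 102780628, minus strand) encodes stromelysin-2, which cuts non-fibrillar matrix proteins and can activate other MMP zymogens. Its level was 2.13, 2.65 and 2.62 FPKM in shTMPRSS4 replicates 1, 2 and 3, against 1.06, 0.94 and 1.39 FPKM in control replicates 1, 2 and 3. The groups did not overlap, and control replicate 3 was the highest of its group. The log2 fold change was 1.11 ± 0.19 (edgeR adjusted p = 6.71e-04). This was the smallest of the 4 tested changes and rested on the fewest reads, 133 to 156 counts per shTMPRSS4 library and 41 to 71 per control library. The coefficient of variation among control libraries was 20.4%, where counting error gives 14.0%. Its call was lost with upper-quartile scaling over the listed genes (log2 fold change 0.46, edgeR adjusted p = 0.0635). With TMM and DESeq2 scaling over them it showed no clear change (log2 fold changes -0.084 and -0.034, edgeR adjusted p = 0.816 and 0.934).

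MMP11 (ENSG00000099953; chromosome 22, 23768226 to 23784316, plus strand) encodes stromelysin-3, an MMP that is activated inside the cell by furin and is typical of the stroma around carcinomas. Its level was 1.79, 2.08 and 1.63 FPKM in shTMPRSS4 replicates 1, 2 and 3, against 0.57, 0.66 and 0.79 FPKM in control replicates 1, 2 and 3. All shTMPRSS4 libraries were above all control libraries. The log2 fold change was 1.43 ± 0.17 (edgeR adjusted p = 6.65e-05). It had 175 to 240 counts per shTMPRSS4 library and 55 to 75 per control library. With TMM or DESeq2 scaling over the listed genes it stayed on the higher side at log2 fold changes of 0.23 and 0.28 and did not pass (edgeR adjusted p = 0.417 and 0.327). With upper-quartile scaling over them it passed as higher (log2 fold change 0.78, edgeR adjusted p = 0.00553).

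ADAMTS1 (ENSG00000154734; chromosome 21, 26835747 to 26845409, minus strand) encodes a secreted protease that cuts the proteoglycans aggrecan and versican. It had 7, 9 and 7 counts in shTMPRSS4 replicates 1, 2 and 3 and 0 counts in every control library. The corresponding levels were 0.08, 0.11 and 0.09 FPKM in the shTMPRSS4 libraries and 0 in the control libraries. A sum of 23 counts has an exact 95% Poisson interval of 14.6 to 34.5, which covers counting error only. Set against a floor of 3 counts over the control group, the observed 23 counts gave a bound of 6.35-fold higher. This bound leaves out the counting error of the 23 counts. Without control replicate 1, the deepest control library, that bound was 3.43-fold, because fewer control reads support the 0. Fitted without the filter on low counts, edgeR with a prior count of 2 gave a log2 fold change of 2.17, below the log2 bound of 2.67. The quasi-likelihood test of that fit gave an adjusted p of 0.00618, for a row already selected for a difference. The DESeq2 Wald test at recovered depth gave a log2 fold change of 5.06 for ADAMTS1, above that bound (adjusted p = 0.00247).

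**Figure D1:**
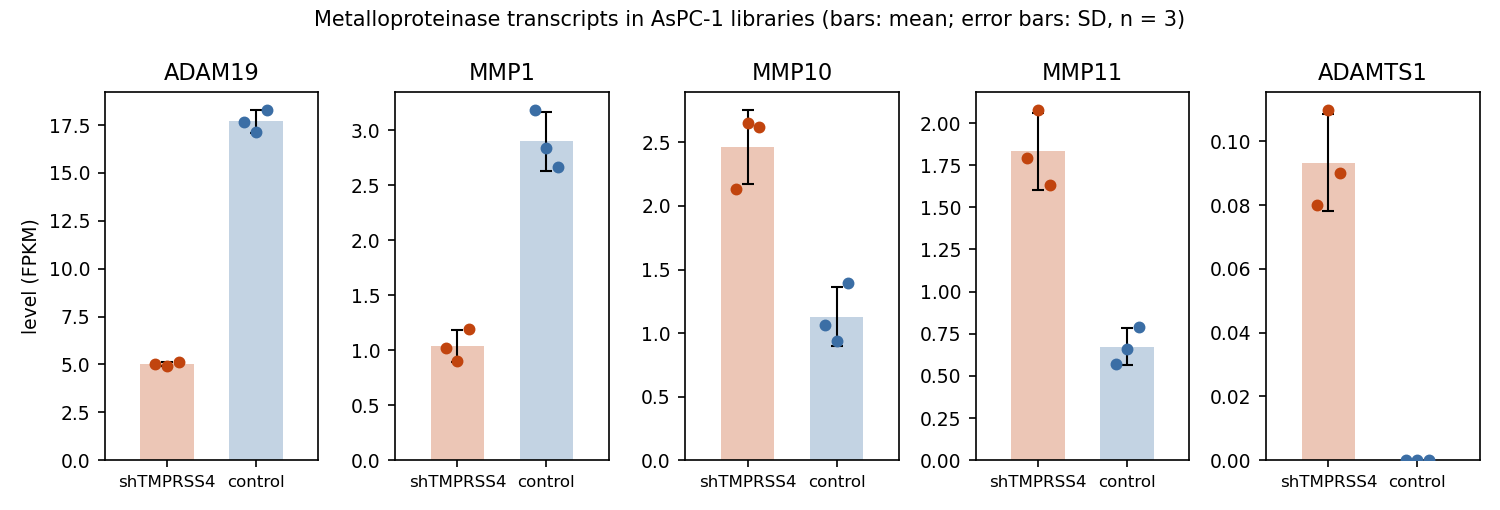
Level in FPKM of the 5 metalloproteinase transcripts in 3 shTMPRSS4 and 3 control AsPC-1 libraries. Points are libraries, bars are group means and error bars are SD. ADAM19 and MMP1 are lower and MMP10, MMP11 and ADAMTS1 higher in every shTMPRSS4 library than in any control library, and the vertical scales differ between genes, from 17.7 FPKM for ADAM19 in control to 0.0933 FPKM for ADAMTS1 in shTMPRSS4.

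The promoter sequences below are shown because MMP10 and MMP11 moved one way and ADAM19 the other. RefSeq promoter windows on GRCh38.p14 matched 3 of the 5 genes, and no window was matched for MMP1 or ADAMTS1. Each is the 250 bases before the transcription start, written 5′ to 3′ on the strand of the gene. Capitals mark TGANTCA for AP-1 sites (N admits letters outside the usual site), TATAAA for the TATA box and GGGCGG for the GC box. Each was searched on both strands, and no matches in these windows overlap.
MMP10, chr11:102780629-102780878, minus strand: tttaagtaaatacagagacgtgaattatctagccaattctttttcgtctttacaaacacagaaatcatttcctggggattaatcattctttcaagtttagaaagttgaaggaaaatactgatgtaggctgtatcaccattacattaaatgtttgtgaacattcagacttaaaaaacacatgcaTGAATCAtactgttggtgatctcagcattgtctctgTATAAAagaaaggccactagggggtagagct
MMP11, chr22:23772599-23772848, plus strand: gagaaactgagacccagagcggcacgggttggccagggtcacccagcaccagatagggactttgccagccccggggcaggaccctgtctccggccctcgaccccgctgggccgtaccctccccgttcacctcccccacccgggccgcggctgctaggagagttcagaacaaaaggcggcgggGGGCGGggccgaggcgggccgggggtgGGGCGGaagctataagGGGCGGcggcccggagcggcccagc
ADAM19, chr5:157575776-157576025, minus strand: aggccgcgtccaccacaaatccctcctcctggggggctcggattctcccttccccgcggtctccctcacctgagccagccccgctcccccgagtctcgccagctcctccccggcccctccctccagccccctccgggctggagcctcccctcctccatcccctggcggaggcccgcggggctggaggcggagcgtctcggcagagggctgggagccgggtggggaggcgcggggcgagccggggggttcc

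The MMP10 window had 1 TGANTCA match, TGAATCA, that began 67 bases before the start, and a TATAAA match that began 31 bases before it. The MMP11 window had neither and held 3 GGGCGG matches, beginning 68, 41 and 25 bases before the start. The ADAM19 window held none of the 3 patterns. Of 35116 RefSeq promoter windows of this length 6.57% held TGANTCA, 10.7% TATAAA and 42.6% GGGCGG. Bases G and C made up 34.4% of the MMP10 window, 73.2% of the MMP11 window and 76.4% of the ADAM19 window. The MMP10 and ADAM19 windows lay outside the exons of their genes in GENCODE. The MMP11 window was spanned by 3 of 13 GENCODE transcripts with starts further upstream, and up to 30 of its bases were exonic. A match of letters is no evidence that a factor was bound in these cells.

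The order of levels changed between the groups. In shTMPRSS4 libraries it was ADAM19, MMP10, MMP11, MMP1 and ADAMTS1 from high to low, and in control libraries ADAM19, MMP1, MMP10, MMP11 and ADAMTS1. No neighbours in either order overlapped over the 3 libraries of a group. MMP1 was thus below ADAM19, MMP10 and MMP11 in shTMPRSS4 libraries, and below ADAM19 alone in control libraries. The summed level of the 5 genes was 10.5 ± 0.355 FPKM in shTMPRSS4 libraries and 22.4 ± 0.804 FPKM in control libraries (SD, n = 3 each). ADAM19 held 48.1% ± 1.92 of that sum in shTMPRSS4 libraries and 79.0% ± 0.421 in control libraries. The summed level of the 3 MMPs was 4.94 to 5.63 FPKM in shTMPRSS4 libraries and 4.44 to 4.85 FPKM in control libraries.

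These orders, shares and sums depend on the gene length behind FPKM, whereas fold changes of a gene do not. The length implied by count, FPKM and depth was 1969 bases for MMP1, whose longest GENCODE transcript has 1970. MMP1 was itself among the 22 single-transcript genes that set the absolute depth, so that match is not independent. For MMP10 the implied length was 1169 bases, against a longest transcript of 1758. For MMP11 it was 2295 of 3823 bases and for ADAM19 3880 of 6481 bases. Rescaled to the longest transcripts, the mean levels in shTMPRSS4 libraries were 3.01 FPKM for ADAM19, 1.64 for MMP10, 1.10 for MMP11 and 1.04 for MMP1. The corresponding control means were 10.6 FPKM for ADAM19, 0.751 for MMP10, 0.404 for MMP11 and 2.90 for MMP1. The order of the means was the same, but on this scale MMP11 (0.979 to 1.25 FPKM) and MMP1 (0.900 to 1.19 FPKM) overlapped in shTMPRSS4 libraries.

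Ratios between genes within a library do not depend on depth or scaling. The level of MMP10 divided by that of MMP1 was 2.09, 2.94 and 2.20 in shTMPRSS4 replicates 1, 2 and 3, against 0.332, 0.331 and 0.521 in control replicates 1, 2 and 3. MMP10 exceeded MMP1 in every shTMPRSS4 library and stayed below it in every control library. The log2 difference of this ratio, shTMPRSS4 minus control, was 2.63 ± 0.27 (SE), a 6.18-fold change. With the longest transcripts as lengths the mean ratio was 1.60 in shTMPRSS4 libraries and 0.263 in control libraries, still on opposite sides of 1.

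MMP11 likewise exceeded MMP1 in every shTMPRSS4 library and was below it in every control library. Its level divided by that of MMP1 was 1.75, 2.31 and 1.37 in shTMPRSS4 replicates 1, 2 and 3, and 0.179, 0.232 and 0.296 in control replicates 1, 2 and 3, a log2 difference of 2.94 ± 0.30. MMP11 divided by MMP10 overlapped between the groups, at 0.622 to 0.840 in shTMPRSS4 libraries and 0.538 to 0.702 in control libraries (log2 difference 0.31 ± 0.18). ADAM19 divided by MMP1 was 4.30 to 5.47 in shTMPRSS4 libraries and 5.54 to 6.86 in control libraries, a log2 difference of -0.33 ± 0.13. Ratios thus changed by 1.24-fold and 1.26-fold between members with the same direction and by at least 6.18-fold between members with opposite directions. Much of that gap is fixed by the authors' selection, since any row higher and any row lower in their table differ by at least 2 on the log2 scale. These ratios carry no test, since the genes were chosen from rows already selected for a difference.

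**Figure D2:**
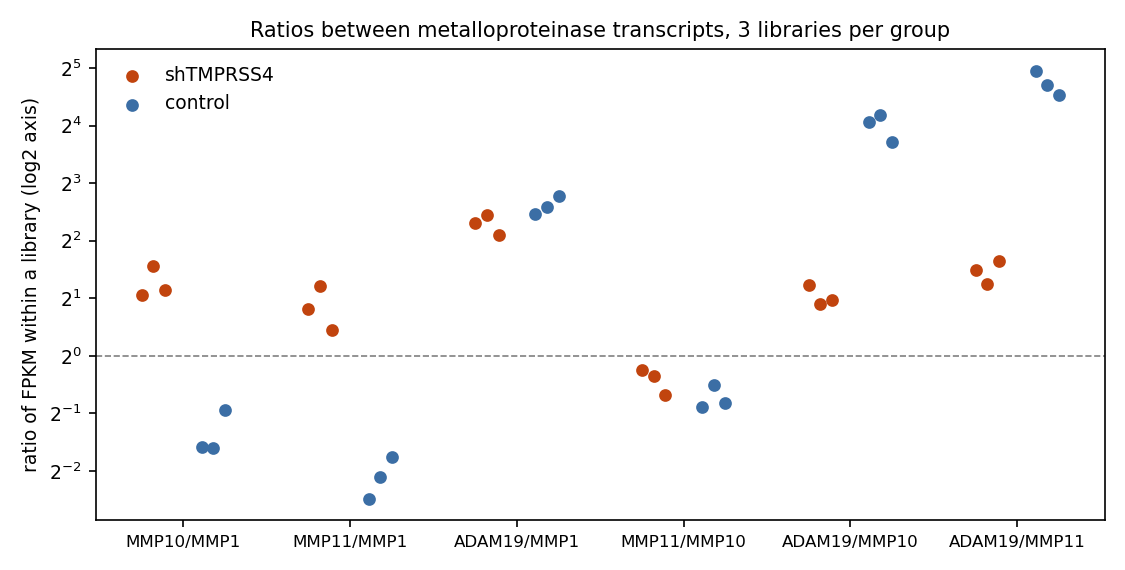
Ratio of FPKM between pairs of metalloproteinase transcripts within each library, on a log2 axis, for 3 shTMPRSS4 and 3 control libraries, with a dashed line at a ratio of 1. MMP10/MMP1 is 2.09 to 2.94 in shTMPRSS4 and 0.331 to 0.521 in control libraries, while MMP11/MMP10 overlaps between the groups.

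The size of the MMP10 change and the calls of MMP10 and MMP11 depended on the scale. Scaling over the listed genes alone moved the median log2 fold change of all tested rows by -1.19 with TMM, by -1.14 with DESeq2 size factors and by -0.65 with upper quartiles. A scaling moves all rows by about the same amount, so distances from that median are nearly fixed by construction. Relative to the median, MMP1 was at -2.73 to -2.75 and ADAM19 at -3.08 to -3.11 under recovered depth and these 3 scalings. MMP10 was at -0.15 to -0.16 and MMP11 at 0.16 to 0.17 relative to the same median. MMP10 and MMP11 thus changed about as much as the median selected row, while MMP1 and ADAM19 lay below it, as every row selected as lower must. MMP1 and ADAM19 passed as lower under all 4 scalings, and the share of rows passing with TMM over the listed genes was 50.6%.

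**Figure D3:**
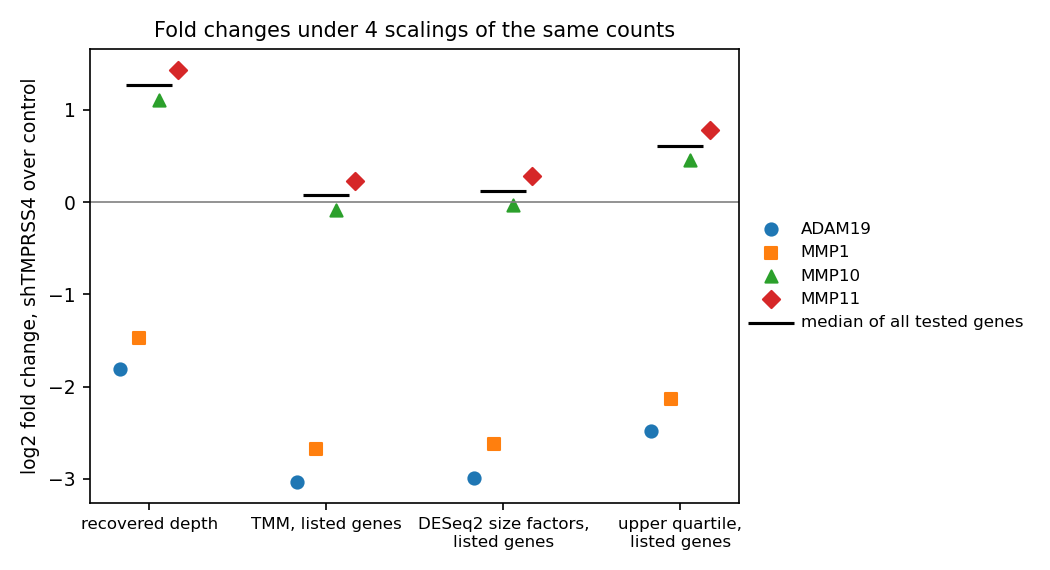
Log2 fold change of shTMPRSS4 over control for ADAM19, MMP1, MMP10 and MMP11 under recovered depth and 3 scalings over the listed genes, with the median of all tested rows as a black bar. ADAM19 and MMP1 stay below 0 under all 4, whereas MMP10 is at 1.11 with recovered depth and at -0.084 with TMM.

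The wider families had few rows in the table. Of 23 MMP genes only MMP1, MMP10 and MMP11 were among the genes analysed, and of 21 ADAM genes only ADAM19. Of 25 ADAMTS and related genes 4 were listed, all with more reads in shTMPRSS4 libraries, as were 73.7% of all rows. Of these, 2 passed as higher, against 73.3% of tested rows, and 2 had too few counts to be tested. With TMM over the listed genes neither of the 2 passed, at log2 fold changes of 0.32 for ADAMTS6 and 0.027 for ADAMTS7. With upper quartiles over them ADAMTS6 passed (0.86) and ADAMTS7 did not (0.55). ADAMTS6 had 1.08, 1.13 and 1.13 FPKM in shTMPRSS4 replicates 1, 2 and 3, against 0.43, 0.44 and 0.27 FPKM in control replicates 1, 2 and 3, and rose by 1.53 ± 0.22 on the log2 scale (edgeR adjusted p = 2.18e-05). ADAMTS7, which cuts cartilage oligomeric matrix protein, rose to 0.213 ± 0.0208 FPKM in shTMPRSS4 libraries, against 0.0900 ± 0.0265 in control libraries. ADAMTS20 was at 20 counts over the shTMPRSS4 libraries and 0 over the control libraries, and was not tested. Of 25 astacins and other surface metallopeptidases 2 were listed. The carboxypeptidase CPM fell to 0.200 ± 0.0361 FPKM in shTMPRSS4 libraries, against 0.797 ± 0.175 in control libraries. The aminopeptidase ENPEP rose to 0.340 ± 0.0265 FPKM in shTMPRSS4 libraries, against 0.153 ± 0.0493 in control libraries. With TMM over the listed genes CPM passed as lower and ENPEP did not pass (log2 fold change -0.066).

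The lists of inhibitors and of zymogen activators of these enzymes held 5 of the rows. Of 15 metalloproteinase inhibitors TIMP2 alone was listed. It had 12.82, 6.83 and 12.78 FPKM in shTMPRSS4 replicates 1, 2 and 3, against 12.81, 30.17 and 29.12 FPKM in control replicates 1, 2 and 3. The groups overlapped through control replicate 1, and TIMP2 did not pass the edgeR quasi-likelihood test at recovered depth (log2 fold change -1.15 ± 0.50, adjusted p = 0.0626). It passed as lower with TMM over the listed genes (-2.38, edgeR adjusted p = 0.0163). It also passed as lower with DESeq2 size factors (-2.34, edgeR adjusted p = 0.0181) and upper quartiles over them (-1.83, edgeR adjusted p = 0.0217). Of 29 activators of zymogens 4 were listed and all 4 passed as lower, against 25.8% of tested rows, with a median log2 fold change of -1.56. The 4 also passed as lower under the 3 scalings over the listed genes. Their shared direction holds for this list, which was chosen with earlier results known. The list left out MMP10, which can also activate MMP zymogens and passed as higher at recovered depth. In the authors' annotation, serine-type endopeptidase activity was carried by 18 rows besides the MMPs, with PLAU, KLK7, KLK10 and KLK11 among them. Of those 18 rows, 8 were higher and 10 lower. PLAU, the urokinase that makes plasmin, had 3.76 ± 0.142 FPKM in shTMPRSS4 libraries and 10.9 ± 0.926 in control libraries. The kallikreins of the list, KLK10, KLK7 and KLK11, fell, with log2 fold changes of -1.59, -1.74 and -1.11. KLK12, another kallikrein among those 18 rows, was not on the activator list.

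Matrix proteins that such enzymes can cut went in both directions. Of 48 matrix substrates 8 were listed, of which 5 passed as lower and 3 as higher, with a median log2 fold change of -1.14. These counts stand beside 25.8% of tested rows lower and 73.3% higher. The glycoprotein TNC and the hemidesmosomal collagen COL17A1 fell, with log2 fold changes of -1.60 ± 0.07 and -1.14 ± 0.05. The basement membrane collagen COL4A2 rose by 1.69 ± 0.12 on that scale. Collagen IV genes did not move together. COL4A1 fell, with a log2 fold change of -2.14 ± 0.48, on 14 counts over the shTMPRSS4 libraries and 69 over the control libraries. COL4A4 had 91 counts over the shTMPRSS4 libraries and 0 over the control libraries. COL4A1 and COL4A4 were named after their values were seen. VCAN, versican, named after its values were seen because ADAMTS1 cuts it, rose to 0.323 ± 0.0289 FPKM in shTMPRSS4 libraries, against 0.05 ± 0.02 in control libraries.

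Of 37 ligands and receptors that ADAM proteases shed, 4 were listed, of which 2 passed as lower, 1 as higher and 1 was not tested (median log2 fold change of the tested -1.15). None of the neuregulins was among the genes analysed. TNFRSF1B, a TNF receptor, fell to 5.73 ± 0.147 FPKM in shTMPRSS4 libraries, against 15.0 ± 0.161 in control libraries. The Notch ligand DLL1 rose by 6.59 ± 0.63 and the receptor kinase AXL fell by 1.15 ± 0.22 on the log2 scale. Of 25 AP-1, ETS and RUNX factors, which are known regulators of MMP genes, JUND alone was listed. JUND had 127 ± 2.35 FPKM in shTMPRSS4 libraries and 50.3 ± 2.93 in control libraries, a log2 fold change of 1.34 ± 0.05. With TMM over the listed genes JUND was at 0.12 and did not pass (edgeR adjusted p = 0.0822). It passed with DESeq2 size factors and upper quartiles over them, at 0.17 and 0.67.

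**Figure D4:**
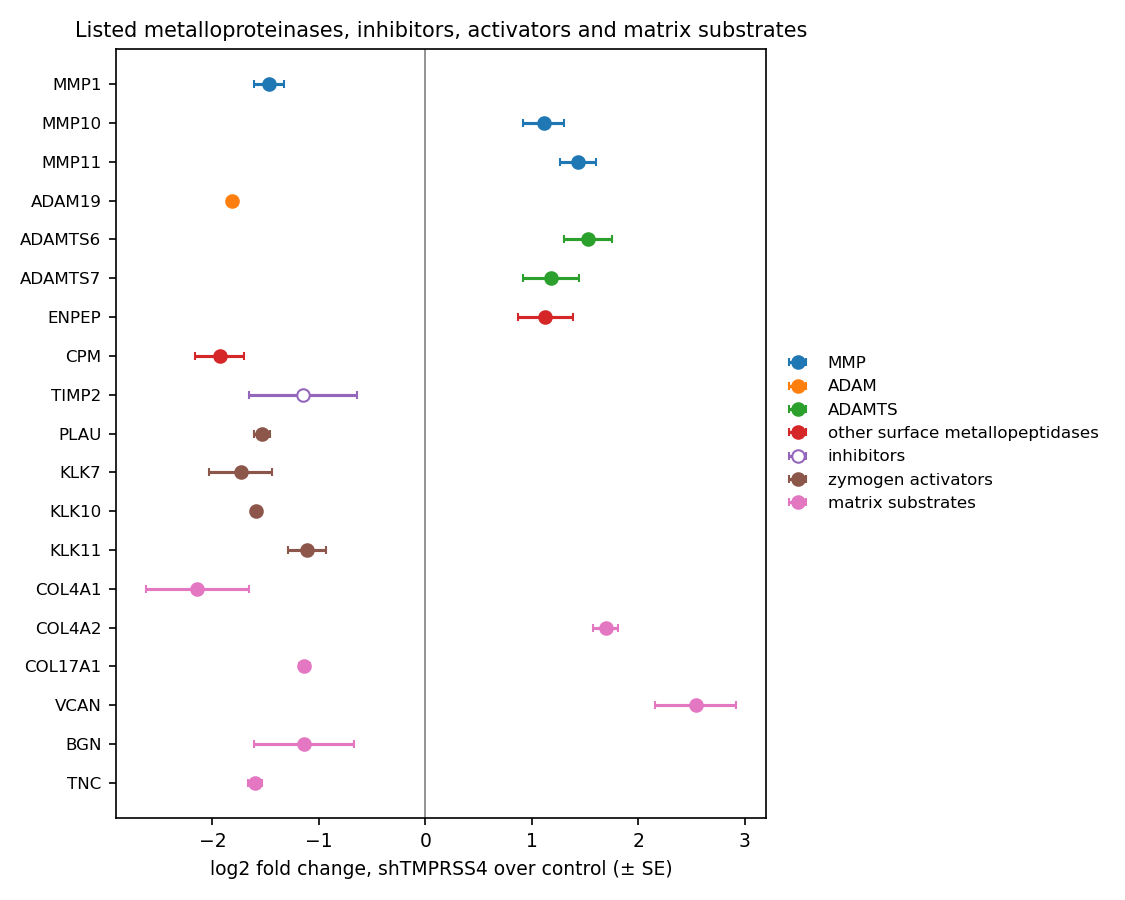
Log2 fold change of shTMPRSS4 over control with SE for tested members of the metalloproteinase families, their inhibitors and activators, and matrix substrates, 3 libraries per group. Genes with 0 counts in all control libraries and 1 matrix substrate are left out, and the open circle (TIMP2, adjusted p = 0.0626) did not pass. The 4 genes of the zymogen activator list lie below 0 and MMP10, ADAMTS6 and ADAMTS7 above it.

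Some genes used as markers of other cell types were among the selected rows, in both directions. Of 15 fibroblast markers VIM, ACTA2 and FAP were listed, and all 3 passed as higher, against 73.3% of tested rows. With TMM over the listed genes FAP alone of the 3 still passed (log2 fold change 0.57, edgeR adjusted p = 0.0494), while VIM was at 0.15 and ACTA2 at 0.040. With upper quartiles over them all 3 markers passed. Their summed level was 19.2 to 20.7 FPKM in shTMPRSS4 libraries and 7.12 to 8.89 FPKM in control libraries, and the other 12, with the collagen I and III genes, were not analysed here. The part of these markers in the rises of MMP11 and ADAMTS1, which fibroblasts also make, was not tested. Of 8 endothelial markers PECAM1 alone was listed, and it fell to 0.197 ± 0.0451 FPKM in shTMPRSS4 libraries, against 0.523 ± 0.140 in control libraries. Of 10 acinar and endocrine markers 2 were listed. CELA3A passed as higher and GCG was not tested, with a summed level of 3.31 to 4.55 FPKM in shTMPRSS4 libraries and 0.26 to 0.34 FPKM in control libraries. No immune marker of 12 and no ductal epithelial marker of 10 was among the rows, so the labelled cell type was not checked against ductal markers.

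MMP1 and MMP10 lie 9291 bases apart on the same strand, in a cluster of 9 MMP genes on chromosome 11. The other 7 genes of that cluster were not analysed here, and no other row lay within 1 Mb of the pair. Neighbouring genes of 1 family therefore moved in opposite directions on the scale of recovered depth. Within 1 Mb of MMP11 lay 4 rows, RAB36, RSPH14, SUSD2 and GGT5, and all 4 passed as higher, against 73.3% of tested rows. With TMM over the listed genes RAB36 and GGT5 passed and RSPH14 and SUSD2 did not. With DESeq2 size factors over them 3 passed, and with upper quartiles all 4. RAB36, a small GTPase gene, had 2.24 ± 0.246 FPKM in shTMPRSS4 libraries and 0.483 ± 0.146 in control libraries. Within 1 Mb of ADAM19, HAVCR1 was the only row and passed as lower (edgeR adjusted p = 0.00890). No row lay within 1 Mb of ADAMTS1.

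The likeness of other rows to each metalloproteinase was measured as the root-mean-square difference of log2(FPKM + 0.1), centred on each gene, over the 6 libraries. Since all rows were selected for a difference between the same groups, close patterns are common, and the values are a description. ADAM19 was closest to ANXA10, an annexin, at 0.0246, then to GNPDA1 at 0.0520 and the transporter ABCG2 at 0.0805, where the median over 572 rows was 1.49. ANXA10 had 30.7 ± 0.818 FPKM in shTMPRSS4 libraries and 107 ± 1.42 in control libraries. MMP1 was close to PPFIA4 at 0.111 and TNFRSF1B at 0.119. MMP10 was closest to APBA1 at 0.0564, the interferon-induced OAS2 at 0.0830 and YPEL1 at 0.0921, and MMP11 to RYR2 at 0.105, GPC2 at 0.116 and then FKBP7. For ADAMTS1 the closest were TRIM36, PTPRN2 and FBXW4 at 0.0466 to 0.0784, but at levels near the offset of 0.1 this measure understates its change.

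Reads of these genes could in small part belong to others. The labels' protocols describe no strand-marking step, so reads of overlapping genes on opposite strands may not be told apart. WTAPP1, a pseudogene on the opposite strand, shares 150 exonic bases with MMP1, 7.61% of its exons. CHCHD10 shares 218 exonic bases with MMP11 (4.21%) and CYFIP2 62 with ADAM19 (0.805%). None of these partners was among the genes analysed. Of the 31-base words in MMP10 transcripts 7.12% occur in other genes, chiefly in MMP3, its close paralog. The share was 4.94% for MMP11, 4.85% for MMP1, 1.79% for ADAMTS1 and 0.492% for ADAM19.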

How the data were processed

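Each deposited value is, per the file headers, a whole-number read count or an FPKM value per gene and library, in 1 table of 753 genes that the authors selected. The authors' deposited table also holds a p-value, an FDR and a log2 fold change, from a test not given in the sources used here. Per the submitters' processing notes, the tool was Bowtie 0.12.2 and the builds were mm8 and mm9, both of mouse, while all 753 identifiers are human and matched GENCODE release 29, so the alignment reference is uncertain.

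Relative depth was the median ratio of count to FPKM over 159 rows with at least 200 counts in every library. It was put on an absolute scale through 22 single-transcript genes. The counts of all rows were fitted with edgeR 4.0.16 (R 4.3.3, quasi-likelihood test, default filter on low counts, robust estimation, recovered depth, prior count 2), with Benjamini-Hochberg adjustment over 705 rows. Adjusted p-values in the text come from this fit unless another scaling or filter is named, and none is independent of the authors' selection. SEs are from log2 depth-scaled counts plus 0.5, and levels are mean FPKM ± SD over 3 libraries. The fit was tested on simulated data with known depths and no selection of rows, which cannot test the scaling or the authors' selection. Alternatives were other scalings, filters and pseudocounts, DESeq2 1.42.0, limma 3.58.1, a replicate block and leaving out each library.

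The 5 genes and the 14 gene lists were chosen with earlier results of these data known. Named genes were the 5, up to 4 per list by the authors' lowest FDR, the 3 rows nearest in pattern among those with at least 0.5 FPKM in the higher group (0.05 FPKM for ADAMTS1), and rows within 1 Mb. A gene that this rule names is not reported here.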

Additional observations from a re-analysis of the deposited data

How the results depend on the processing

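With TMM, DESeq2 and upper-quartile scaling over the listed genes, the number of metalloproteinases called higher was 0, 0 and 1 instead of 2, and 0 had an unadjusted p under 0.05 with TMM in edgeR, while the DESeq2 Wald test at recovered depth called 3. On the log2 scale MMP10 went to -0.084 (TMM) and -0.034 (DESeq2 size factors), no clear change in either direction, and to 0.46 with upper quartiles. MMP11 fell to 0.23 with TMM and 0.28 with DESeq2 size factors, and stayed called as higher at 0.78 with upper quartiles. TMM and DESeq2 size factors centre selected rows near 0 by construction, with median log2 fold changes of 0.072 and 0.12 over all tested rows. Upper quartiles lowered that median only to 0.61. The 2 called lower, MMP1 and ADAM19, stayed called in all 17 alternatives run, and MMP10 and MMP11 stayed called in the 14 that kept recovered depth or the authors' FPKM. With limma and a pseudocount of 1 the changes shrank to -0.94 for MMP1, 0.70 for MMP10 and 0.76 for MMP11, as that pseudocount is close to their levels.

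Leaving out each library in turn gave log2 fold changes of -1.84 to -1.79 for ADAM19, -1.58 to -1.38 for MMP1, 1.004 to 1.26 for MMP10 and 1.32 to 1.56 for MMP11, all passing. The log2 bound for ADAMTS1 ranged from 1.78 to 2.77. Same-numbered libraries did not deviate together (Pearson r across 708 rows -0.0108, 0.0181 and -0.0619), so the numbers were not taken to pair them. With the replicate block 682 rows passed instead of 699, and the log2 fold change of MMP10 was 1.11. At 41 to 71 control counts for MMP10, depth limits how precisely its fold is known.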

Other observations

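In the annotation terms of the deposited table, read after the values were seen, the term collagen catabolic process was carried by 3 rows, which were MMP1, MMP10 and MMP11. Extracellular matrix disassembly was carried by these 3 and by KLK7, SCUBE1 and TIMP2, of which 1 was higher and 2 lower in shTMPRSS4 libraries by the authors' deposited table. Metalloendopeptidase activity was carried by all 5 metalloproteinases and 6 other rows, ADAMTS6, ADAMTS7, ADAMTS20, FAP, LMLN and KLK7, of which 5 were higher and 1 lower. These counts stand beside 73.7% of all 753 rows higher in the authors' deposited table.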
